A study of Mus musculus with 4 samples.

Results

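Saa3, Lrg1, Vsig4, Chil3 and Retnla are 5 of the 19491 genes listed in single-cell RNA-seq libraries of CD45+ leukocytes from the mouse dura mater and brain. They were chosen by their change between control and injured mice in dura mater macrophages of the same libraries, so their values in those cells are given as a description and support nothing. The questions were which immune classes make them, and whether the other classes and the brain move alike. C57BL/6J mice of 8 weeks underwent photothrombotic injury (PTI), in which a light-activated dye clots vessels of the dura mater, pia mater and brain under the illuminated skull, and tissue was taken at day 3 (D3). The controls, labelled CT, were taken as the sham-operated group that the paper calls S3. CD45+ cells were sorted from enzyme-digested tissue and sequenced on the 10× Chromium platform, which counts unique molecular identifiers (UMIs) near the 3′ end of transcripts. There was 1 library for each of dura mater S3, dura mater D3, brain S3 and brain D3, and the text of the paper does not give how many mice went into each.

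With 1 library per group there was no replicate, so no difference was tested. All intervals are 95% intervals for counting error alone, and they are too narrow where the UMIs of a gene lie in few cells. The 4 libraries held between 3515 and 5925 barcodes and between 49003977 and 115154317 UMIs, and 14014 cells were kept. Median depth per barcode was 7649 UMIs in dura mater S3, 12635 in dura mater D3, 7454 in brain S3 and 14205 in brain D3. Between 3 and 11 barcodes were shared by any pair of libraries. Cells were clustered with the 5 genes and their families left out, and each cluster was named from marker lists, so that every class name below stands for cells that are like that type. Levels are UMIs of a gene per 1000000 UMIs of the class (CPM), and ratios are log2 of D3 over S3.

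All of these genes encode secreted or surface proteins of innate immunity. Serum amyloid A proteins are released in the acute-phase response to cytokines such as IL-1 and IL-6, and Saa3 is the form made outside the liver, among others by macrophages. Lrg1 encodes leucine-rich alpha-2-glycoprotein, stored in neutrophil granules and made by activated endothelium, where it modulates TGF-beta signalling. Vsig4 encodes CRIg, a complement receptor for C3b and iC3b of tissue-resident macrophages. Chil3 encodes the chitinase-like protein Ym1 and Retnla the resistin-like RELMalpha, both known as products of macrophages exposed to IL-4 and IL-13, and Ym1 is also made by myeloid precursors.

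On mm10 (GRCm38, GENCODE vM21), Saa3 lies at chr7:46711998-46715700 on the minus strand, Lrg1 at chr17:56119678-56122001 on the minus strand and Vsig4 at chrX:96247203-96293438 on the minus strand. Chil3 lies at chr3:106147554-106167564 on the minus strand, and Retnla at chr16:48842551-48844461 on the plus strand. Since injury-induced genes are often read through promoter motifs of C/EBP, STAT and AP-1 factors, 190 bases before each start (RefSeq, GRCm38.p6, from 250 to 61 bases upstream) were searched on both strands. The motifs were TTGCNNAA for C/EBP, TTCNNNGAA for STAT factors, the same TTC and GAA set 4 bases apart for STAT6, and TGANTCA for AP-1. The windows with a match are shown, read on the gene's strand, with the matched bases in capitals, at chr7:46715737-46715926 (minus) for Saa3, chr3:106167625-106167814 (minus) for Chil3 and chr16:48842359-48842548 (plus) for Retnla.
Saa3: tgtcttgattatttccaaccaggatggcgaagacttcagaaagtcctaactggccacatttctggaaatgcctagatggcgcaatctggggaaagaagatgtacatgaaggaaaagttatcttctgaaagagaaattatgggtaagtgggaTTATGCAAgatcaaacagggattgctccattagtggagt
Chil3: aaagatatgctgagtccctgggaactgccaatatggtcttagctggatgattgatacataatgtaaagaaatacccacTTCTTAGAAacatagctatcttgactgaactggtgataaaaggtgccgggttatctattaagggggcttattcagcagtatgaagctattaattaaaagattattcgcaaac
Retnla: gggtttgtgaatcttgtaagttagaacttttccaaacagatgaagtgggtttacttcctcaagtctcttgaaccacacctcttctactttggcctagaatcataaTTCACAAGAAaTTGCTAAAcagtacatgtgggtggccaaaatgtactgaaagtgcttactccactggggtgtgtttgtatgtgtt
The Saa3 window held a C/EBP match, read on the opposite strand, whose first base stood 99 bases before the start. In the Chil3 window a STAT match began 172 bases before the start. The Retnla window held a STAT6 match 145 bases before the start, followed 1 base later by a C/EBP match 134 bases before it. The Lrg1 and Vsig4 windows held none of these letters. Of 32851 RefSeq promoter windows of the same length, 7.77% held the C/EBP letters, 5.51% the STAT, 4.54% the STAT6 and 5.22% the AP-1 letters. Distances count from the RefSeq start, which differs from the GENCODE start of the positions above for Saa3, Lrg1 and Retnla. A match is a stretch of letters and not a binding site.

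The 5 genes were made in different classes. Saa3 UMIs came mostly from macrophage classes, Lrg1 and Chil3 UMIs from the neutrophil lineage and, for Chil3, monocytes, Vsig4 UMIs from Lyve1+ macrophages, and Retnla UMIs from a few macrophages and conventional dendritic cells type 2 (cDC2). In dura mater D3, Lyve1+ macrophages held 75.1% of Saa3 and 92.7% of Vsig4 UMIs but 2.12% of Lrg1 and 0.265% of Chil3 UMIs. Immature neutrophils held 48.7% of the Lrg1 UMIs of that library, and granulocyte precursors 41.5% of its Chil3 UMIs.

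**Figure D1:**
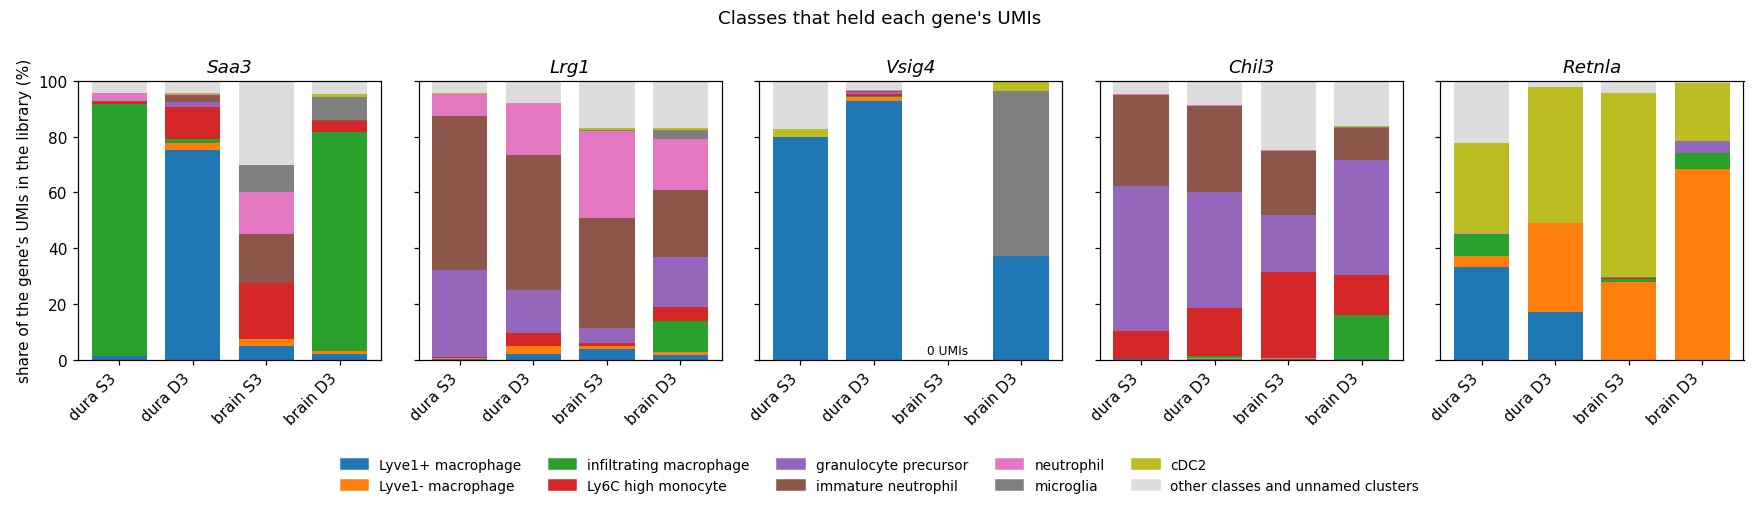
Share of each gene's UMIs (percent, vertical axis, stacked bars) held by each immune class, 1 bar for each gene and library. Brain S3 lists no Vsig4. Vsig4 in the dura mater is nearly all from Lyve1+ macrophages (80% at S3 and 92.7% at D3), while Chil3 comes mainly from granulocyte precursors, immature neutrophils and Ly6C high monocytes, and in brain D3 also from infiltrating macrophages (15.6%).

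Of the macrophages, the Lyve1+ class (leading genes Ccl8, Cd209f, Lyve1, Cd163, Folr2 and Mrc1) numbered 289 and 428 cells in dura mater S3 and D3 and 123 and 146 in brain. The Lyve1- class, led by Axl and MHC class II genes, numbered 209, 310, 236 and 254. A separate cluster of infiltrating macrophages, led by Arg1, Gpnmb, Spp1 and Fabp5, held 1497 cells in brain D3 and 12 to 40 cells in the others. Microglia, which mark brain tissue, numbered 408 and 608 cells in brain S3 and D3 against 3 and 5 in the dura mater. The Lyve1+ and Lyve1- classes together are called macrophages below.

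Saa3 was found in few macrophages at S3 and in a larger minority of Lyve1+ macrophages at D3, in both tissues. In dura mater Lyve1+ macrophages it measured 13.7 CPM (10.1 to 18.2, 48 UMIs) at S3 and 364 CPM (349 to 379, 2327 UMIs) at D3, a log2 ratio of 4.73 (counting interval 4.32 to 5.17). In brain Lyve1+ macrophages it measured 1.38 CPM (2 UMIs) at S3 and 97.3 CPM (132 UMIs) at D3, a log2 ratio of 6.14 (counting interval 4.26 to 9.21). The brain, whose values did not choose the genes, thus had the same direction. Of 48 UMIs in dura mater S3, 46 lay in 1 Lyve1+ macrophage, and with the highest cell of each group left out the ratio in dura mater macrophages was 7.64.

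The share of Lyve1+ macrophages with a Saa3 UMI was 0.692% at S3 and 27.8% at D3 in the dura mater, and 1.63% and 14.4% in the brain. With each cell thinned to 2000 UMIs the shares were 0.348%, 15.2%, 0% and 7.53%. T and B cells, which should lack the gene, had 0.446% and 1.6% in the dura mater and 0.37% and 2.4% in the brain, at a median of 5648, 5593, 5871 and 5196 UMIs against 11605, 15041, 10030 and 7672 in Lyve1+ macrophages. The D3 shares of Lyve1+ macrophages were therefore above this measure of free RNA, and the S3 shares were within counting error of it.

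Lyve1- macrophages had less Saa3 than Lyve1+ macrophages in both D3 libraries. Their level was 1.48 CPM at S3 and 17.4 CPM at D3 in the dura mater (4.52% of D3 cells with a UMI), and 0.329 and 17.7 CPM in the brain (3.94% of D3 cells). With thinned cells the D3 shares were 1.29% and 0.791%, against 0.535% and 0.962% in T and B cells, whose levels were 8.77 CPM (4.38 to 15.7) and 16.4 CPM (10.2 to 25.1). Of the D3 UMIs of T and B cells, 9 in the dura mater and 17 in the brain lay in 1 T cell each. Their levels are therefore an uneven measure of free RNA. Of the 55 Saa3 UMIs of brain D3 Lyve1- macrophages, 46 lay in 1 cell. The thinned D3 shares of Lyve1- macrophages were close to those of T and B cells, and no expression is read from these shares. In dura mater D3, 4 Lyve1- macrophages held 10 or more Saa3 UMIs, with 28 in the highest, and 76.2% of the 84 UMIs of their class. The highest T cell of that library held 9. Over both macrophage classes, Saa3 measured 8.38 and 215 CPM in the dura mater (log2 ratio 4.68, interval 4.28 to 5.10) and 0.667 and 41.9 CPM in the brain (5.97, interval 4.40 to 8.26). With thinned cells the brain ratio was 3.07.

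**Figure D2:**
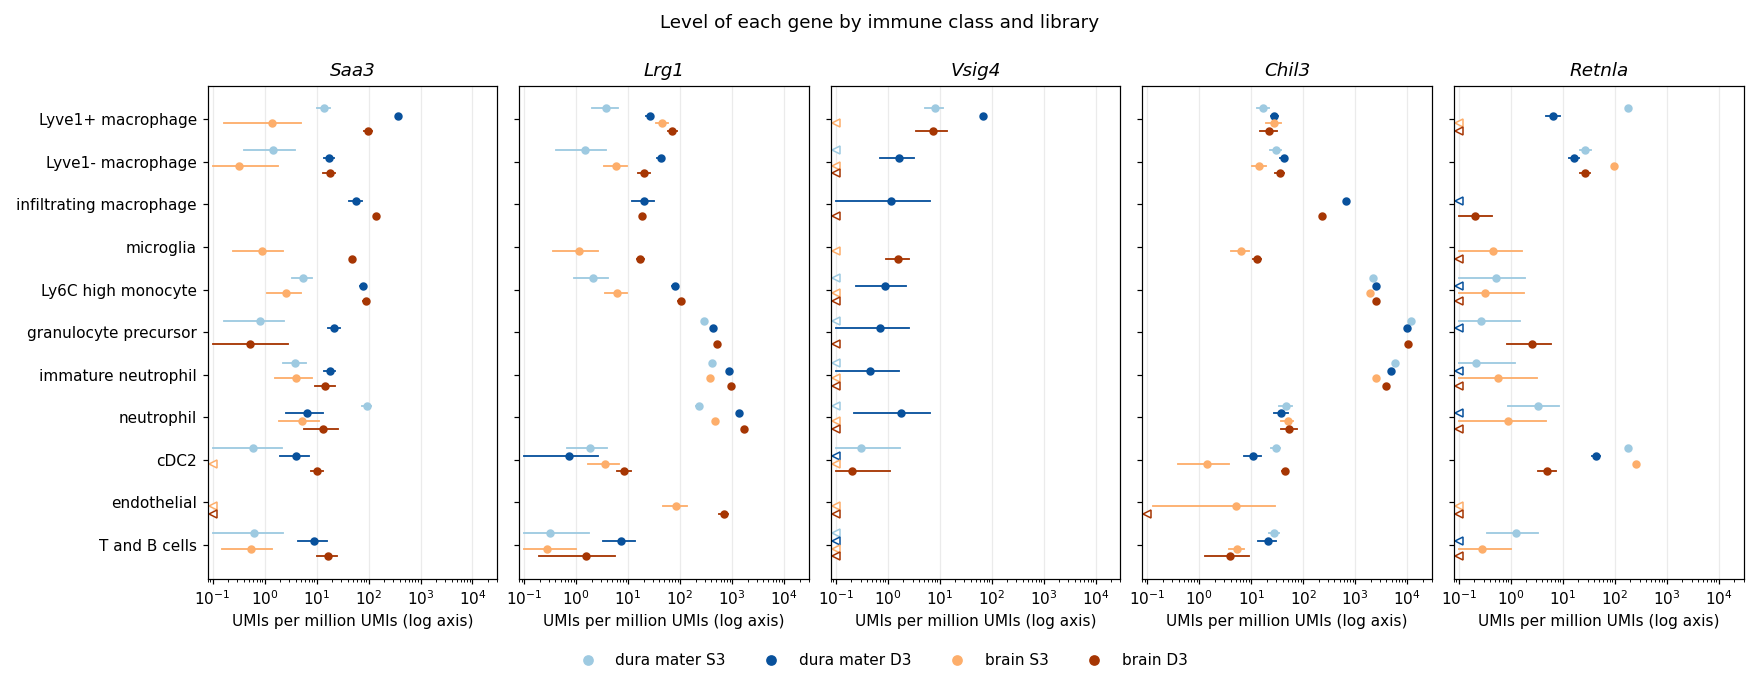
Level of each gene (CPM, log axis, 1 panel a gene) in 11 immune classes and 4 libraries; dots are levels, lines 95% Poisson intervals, open left-pointing triangles groups with 0 UMIs, and groups under 20 cells are not drawn. Lyve1+ macrophages at D3 have the highest Saa3 of the dura mater classes drawn (364 CPM), and Lrg1 is highest in the neutrophils of both tissues at D3 among groups of at least 20 cells.

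Outside the macrophages, Saa3 was higher at D3 in Ly6C high monocytes and in microglia. Ly6C high monocytes, the inflammatory blood monocytes, measured 5.43 and 76.5 CPM in the dura mater (log2 ratio 3.82) and 2.55 and 88 CPM in the brain (5.11). Their share with a UMI was 3.35% and 17.4% in the dura mater and 1.33% and 14.1% in the brain, and 3.95% and 4.04% of D3 cells after thinning. Microglia, the resident phagocytes of the brain parenchyma, measured 0.891 CPM at S3 and 49.1 CPM at D3 (log2 ratio 5.78, interval 4.42 to 7.66), with a UMI in 0.98% and 6.25% of cells. The microglia with a Saa3 UMI at D3 were deeper than the others (median 30989 against 9593 UMIs), and after thinning 0.245% and 2.3% of microglia had one, against 0.185% and 0.962% of T and B cells. The summed level of 7 markers of infiltrating macrophages, all detected, was 1019 CPM in S3 and 5053 CPM in D3 microglia, that of 7 Lyve1+ markers 192 and 254 CPM, and that of 8 neutrophil markers 836 and 2185 CPM. Their part in the Saa3 difference was not tested.

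In immature neutrophils Saa3 measured 3.89 and 17.8 CPM in the dura mater (log2 ratio 2.20) and 3.99 and 14.8 CPM in the brain (1.89). Of their D3 UMIs, 51 of 77 in the dura mater and 16 of 21 in the brain lay in 1 cell. No expression is read from the brain level. It was below the 16.4 CPM of T and B cells, which itself rests mostly on 1 T cell. In dura mater immature neutrophils 10 markers of Lyve1- macrophages, all detected, summed to 753 CPM at S3 and 3603 CPM at D3, and their part was not tested. Mature neutrophils were lower at D3 in the dura mater, with 112 and 7 UMIs, but 110 of the S3 UMIs lay in 1 cell.

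The counting interval of the Saa3 ratio lay above 0 in 10 of 18 dura mater and 8 of 17 brain classes, and below 0 in 1 dura mater class, the neutrophils. Over all pairs of a gene with at least 50 UMIs and a class, the interval lay above 0 in 9.02% and below 0 in 12.4% of 100867 dura mater pairs, and above 0 in 12.2% and below 0 in 15.7% of 89987 brain pairs. The classes counted for Saa3 and the other genes here had no limit of 50 UMIs, so these shares are not a like measure. T cells were among the Saa3 classes above 0 in both tissues, with 9 of 10 and 17 of 19 D3 UMIs in 1 cell each. After thinning, 8 classes of both tissues lay above 0, and with the level of T and B cells subtracted as free RNA, 9 did.

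Saa3 was unevenly spread over cells. Cells with 10 or more Saa3 UMIs numbered 7 in dura mater S3, 62 in dura mater D3, 0 in brain S3 and 123 in brain D3, and they held 98.3%, 85.2% and 89.0% of the Saa3 UMIs of the libraries that had any such cell. In dura mater D3, 41 of the 62 were Lyve1+ macrophages, with 241, 228 and 199 UMIs in the highest. In brain D3, 91 of the 123 were infiltrating macrophages, with 258 UMIs in the highest, and that class measured 141 CPM with a UMI in 18.2% of its cells. Saa3 was among the 10 leading genes of the infiltrating cluster, though it took no part in the clustering.

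In dura mater S3, a single cell of the infiltrating cluster held 2681 Saa3 UMIs, 12.6% of its 21244 UMIs. Further cells of the same cluster held 413 and 394, so that its 16 cells carried 90.4% of the Saa3 UMIs of the library. Summed over all cells, Saa3 therefore measured 93.2 CPM in dura mater S3 and 77.2 CPM in D3, a log2 ratio of -0.27 (counting interval -0.34 to -0.20), opposite to that of the macrophages. In the brain the same sum was 1.08 and 85.4 CPM. When each cell was instead gated by its own marker score, the cell of 2681 UMIs fell among the dura mater S3 macrophages and the macrophage ratio was -1.04. None of the cells with 10 or more UMIs had a barcode shared between libraries.

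**Figure D3:**
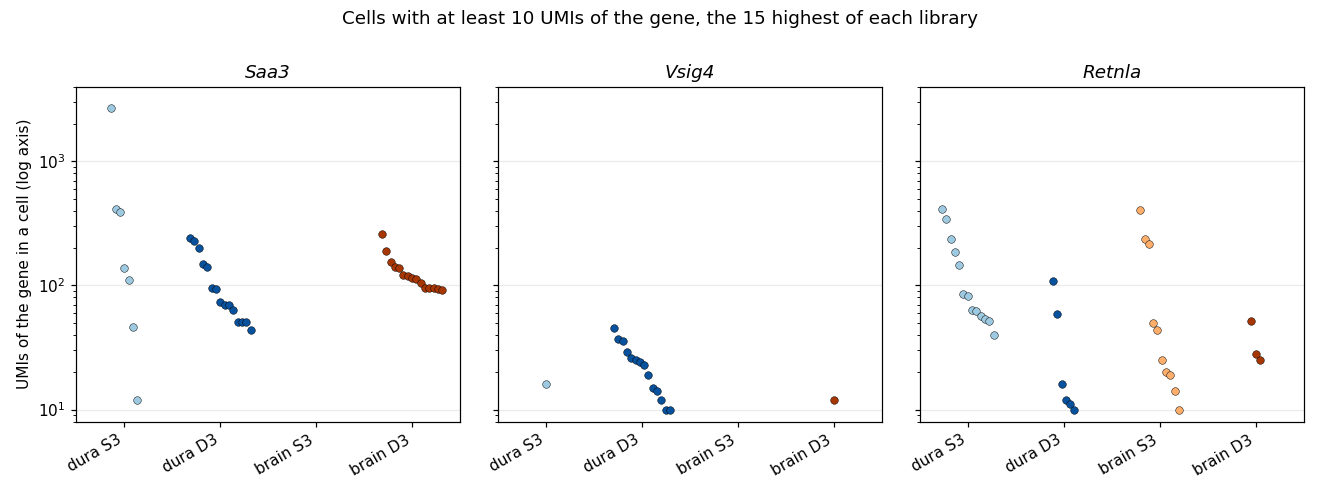
Single cells with 10 or more UMIs of Saa3, Vsig4 or Retnla (UMIs per cell, log axis; up to the 15 highest cells of each library, 1 point a cell). The dura mater S3 cell of 2681 Saa3 UMIs stands apart from every other cell, and Retnla shows 13 and 10 such cells in S3 dura mater and brain against 6 and 3 at D3.

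Lrg1 was highest in the neutrophil lineage and, at the few cells captured, in endothelium, and it was higher at D3 in mature neutrophils of both tissues. Neutrophils measured 233 CPM at S3 and 1340.3 CPM at D3 in the dura mater (log2 ratio 2.53, interval 2.34 to 2.71), with a UMI in 44% and 92.9% of cells. In the brain they measured 461 and 1693 CPM (1.88, interval 1.73 to 2.03), with a UMI in 53.6% and 92.7% of cells. After thinning the shares were 27%, 83.7%, 43.1% and 87%, so the difference remained at equal depth. Of all genes tested in these neutrophils, 4.61% in the dura mater and 2.31% in the brain were at least 2-fold higher at D3.

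Lrg1 ratios were smaller at earlier stages of the lineage. Immature neutrophils, which carry secondary granule genes such as Ltf and Camp, measured 419.6 and 883 CPM in the dura mater (log2 ratio 1.07) and 381 and 949.9 CPM in the brain (1.32). Granulocyte precursors, which carry primary granule genes such as Elane and Mpo, measured 292 and 428 CPM in the dura mater (log2 ratio 0.55). In the brain, 8 precursor cells at S3 gave 337 CPM and 54 at D3 gave 524 CPM.

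Endothelial cells were rare in these CD45+ sorts. Lrg1 measured 498 CPM in 7 endothelial cells of dura mater S3 (352 to 683) and 1596 CPM in 11 of D3 (1389 to 1825), with a UMI in 71.4% and 90.9% of them. In the brain 20 cells of S3 gave 82.8 CPM and 24 of D3 gave 685 CPM (log2 ratio 3.05), but 121 of the 125 UMIs at D3 lay in a pair of cells, with 66 and 55.

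Ly6C high monocytes had almost no Lrg1 at S3 and had it in a sizeable minority of cells at D3. Their level was 2.07 and 79 CPM in the dura mater (log2 ratio 5.25, interval 4.26 to 6.48) and 6.07 and 105 CPM in the brain (4.11, interval 3.44 to 4.86), with a UMI in 1.12%, 32%, 2.67% and 27.3% of cells in the same order. T and B cells were at 0.223%, 1.6%, 0.185% and 0.481%. The summed level of 8 neutrophil markers, all detected, was also higher in these monocytes at D3, with 1348 and 3770 CPM in the dura mater and 1974 and 7213 CPM in the brain, and in T and B cells it was 533, 740, 247 and 1790 CPM. The part of this in the Lrg1 difference was not tested.

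In macrophages Lrg1 was low, and the difference was larger in the dura mater than in the brain. It measured 2.74 CPM at S3 and 32.9 CPM at D3 in dura mater macrophages (17 and 369 UMIs, log2 ratio 3.58, interval 2.89 to 4.38), with a UMI in 1.41% and 9.35% of cells. Brain macrophages measured 18.7 and 35.7 CPM (84 and 159 UMIs, 0.93, interval 0.54 to 1.33), and there the share of cells with a UMI was lower at D3, 6.69% and 4%. The neutrophil markers summed to 3576 and 4741 CPM at S3 and D3 in dura mater macrophages, where they and Lrg1 were higher at D3. In brain macrophages they summed to 10282 and 1935 CPM, opposite in direction to the Lrg1 level. In brain S3 Lyve1+ macrophages the neutrophil markers reached 27755 CPM. Their part in the Lrg1 values was not tested. With doublets kept the dura mater ratio was 1.91, and with thinned cells 4.56. Microglia measured 1.11 and 17.2 CPM (log2 ratio 3.95), and infiltrating macrophages of brain D3 18.7 CPM.

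Over the classes, the Lrg1 interval lay above 0 in 9 of 18 in the dura mater and 10 of 17 in the brain, and below 0 in 1, the conventional dendritic cells type 1 (cDC1) of the dura mater, which held 12 UMIs at S3. The share of all pairs above 0 was 9.02% in the dura mater and 12.2% in the brain. Those pairs had at least 50 UMIs, a limit not set for the Lrg1 classes. After thinning, the interval lay above 0 in 10 classes of both tissues, against 19 before it. Over all cells Lrg1 measured 84.8 and 195 CPM in the dura mater and 45.6 and 80.2 CPM in the brain.

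**Figure D4:**
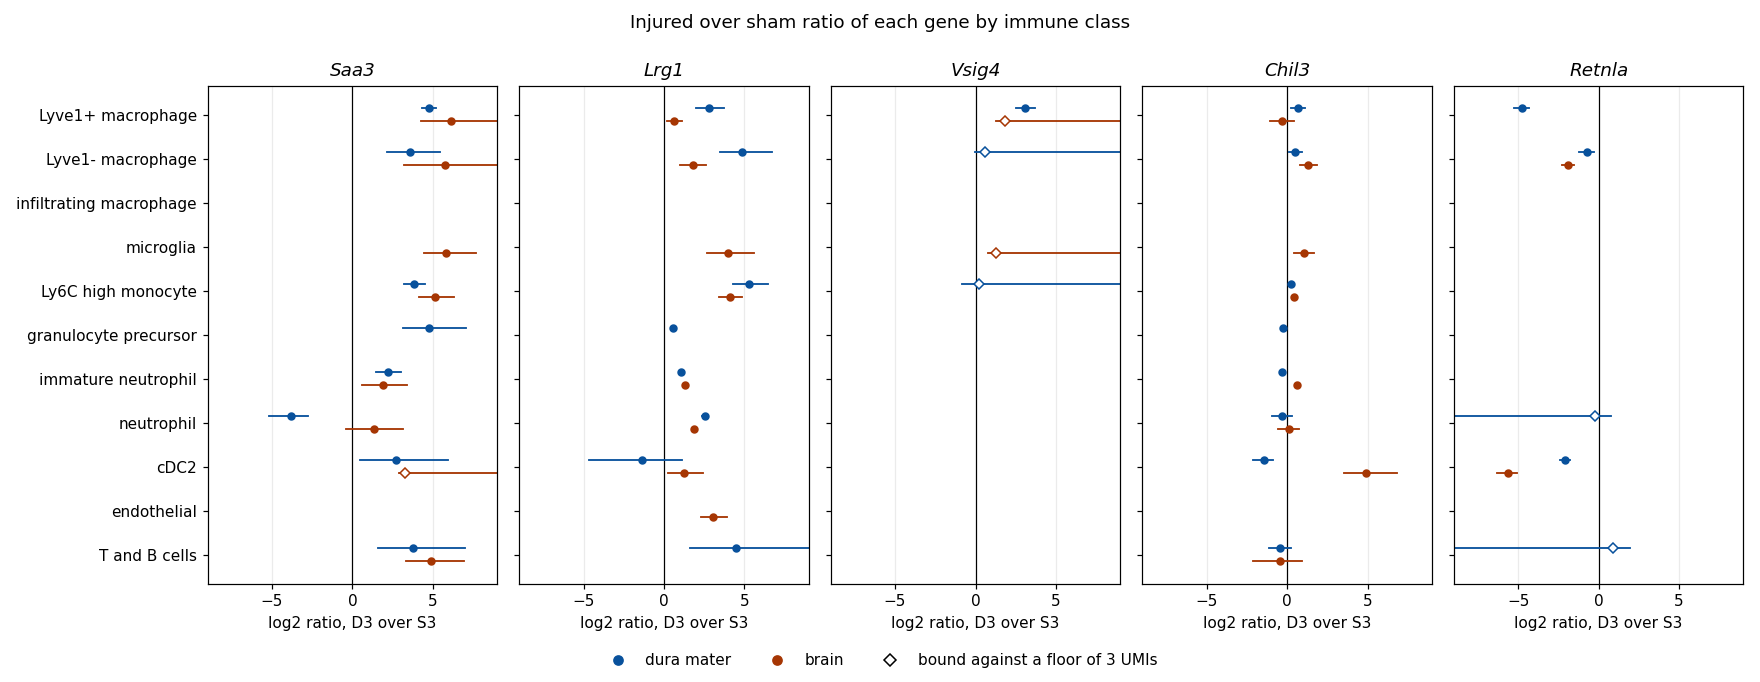
Log2 ratio of D3 over S3 (horizontal axis) for each gene and class, dura mater and brain in separate colours, with 95% counting intervals. Open diamonds are ratios set against a floor of 3 UMIs where a group had none. Saa3 and Lrg1 lie right of 0 in most classes drawn, and Chil3 differs by less than 2-fold in its main classes. Retnla lies left of 0 in every class drawn whose interval is off 0.

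Vsig4 UMIs of the dura mater lay nearly all in Lyve1+ macrophages. These measured 8.02 CPM (5.33 to 11.6, 28 UMIs) at S3 and 67.6 CPM (61.3 to 74.2, 432 UMIs) at D3, a log2 ratio of 3.08 (counting interval 2.52 to 3.68). The share with a UMI was 1.73% at S3 and 10.5% at D3, or 0.348% and 5.37% after thinning, against 0 of 448 and 0 of 187 T and B cells, which allows shares of up to 0.82% and 1.95% by the exact interval. Cells with 10 or more UMIs numbered 1 and 14, and the highest of D3 held 45 UMIs. With the highest cell of each group left out, the ratio in dura mater macrophages, 3.12 with all cells, was 4.19.

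Brain cells had little Vsig4. Brain S3 listed none, and brain D3 held 27 UMIs in all, 10 in a pair of Lyve1+ macrophages and 16 in microglia, of which 12 lay in 1 cell. Against a floor of 3 UMIs at S3, the ratio in brain Lyve1+ macrophages was 1.84 on the log2 scale (counting interval from 1.26). Each library lists only genes detected in 3 or more cells, so brain S3 could still have held Vsig4 in fewer cells. With a pair of Lyve1+ cells at D3, the brain ratio is uncertain to that extent. At D3 the brain Lyve1+ level was 7.37 CPM (3.54 to 13.6), beside 67.6 CPM in the dura mater. An interval above 0 was found in 1 of 18 dura mater classes (Lyve1+ macrophages) and 2 of 17 brain classes (Lyve1+ macrophages and microglia). None lay below 0. Of all pairs with at least 50 UMIs, 9.02% and 12.2% lay above 0. Those shares are not a like measure, since most Vsig4 classes held too few UMIs for a ratio. Both brain values take the unlisted gene as 0 UMIs in brain S3, and the microglia value rests on the single cell of 12 UMIs. In 15 classes of each tissue both libraries were at or under 3 UMIs, where no ratio can be given.

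Chil3 was made chiefly by the granulocyte lineage and by monocytes, and there its level differed by less than 2-fold between S3 and D3. Granulocyte precursors measured 11654 CPM at S3 and 9855 CPM at D3 in the dura mater (log2 ratio -0.24, interval -0.26 to -0.22). In the brain 8 precursor cells gave 15139 CPM at S3 and 54 gave 10313 CPM at D3. Immature neutrophils had 5935 and 4798 CPM in the dura mater (log2 ratio -0.31) and 2534 and 3958 CPM in the brain (0.64), so the tissues differed in sign. Mature neutrophils had far less, 46.2, 37.8, 50.2 and 53.8 CPM, with ratios whose intervals held 0 in both tissues.

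Ly6C high monocytes carried Chil3 in most cells. Their level was 2161 and 2547 CPM in the dura mater (log2 ratio 0.24) and 1918 and 2566 CPM in the brain (0.42), with a UMI in 74%, 80.6%, 69.8% and 73.7% of cells. Ly6C low monocytes, the patrolling type, had 207, 270.1, 225 and 176 CPM. Infiltrating macrophages of brain D3 had 226 CPM, and 57.2% of them had a UMI (22.2% when thinned). Proliferating cells, of mixed lineage, had log2 ratios of 1.58 and 0.47 in the dura mater and brain.

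In dura mater macrophages, where Chil3 was held to move, the level was below that of T and B cells at S3 and above it at D3. Macrophages measured 22.6 CPM (19 to 26.6) at S3 and 33.9 CPM (30.5 to 37.4) at D3, a log2 ratio of 0.59 (counting interval 0.30 to 0.88) that did not reach 2-fold. Their share with a UMI was 20.1% and 22.5%, and 3.23% and 4.47% after thinning. T and B cells of the same libraries measured 27.8 (22.3 to 34.3) and 20.7 CPM (13.5 to 30.4), with 17% and 12.8% of cells, and 6.47% and 3.21% after thinning. The S3 level of macrophages was below that of T and B cells, and no expression is read from it. The T and B cells were shallower, with medians of 5648 and 5593 UMIs against 11959 and 15113 in macrophages. An equal amount of free RNA gives a higher CPM in shallower cells, so these levels are not a like measure of free RNA. In brain macrophages Chil3 measured 18.5 and 31.4 CPM (log2 ratio 0.77, interval 0.36 to 1.18), and T and B cells 5.34 and 3.92 CPM. The brain ratio was -0.038 when no cell was filtered out and -0.042 when the clustering kept all variable genes, but 2.50 when cells were gated by marker score.

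Chil3 intervals lay above 0 in 4 and below 0 in 7 of 18 dura mater classes, and above 0 in 8 and below 0 in 1 of 17 brain classes. The share of all pairs above and below 0 was 9.02% and 12.4% in the dura mater and 12.2% and 15.7% in the brain. Several of the classes below 0 in the dura mater (innate lymphoid cells type 2, mast cells and dendritic cells) had between 39 and 169 Chil3 UMIs at S3.

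**Figure D5:**
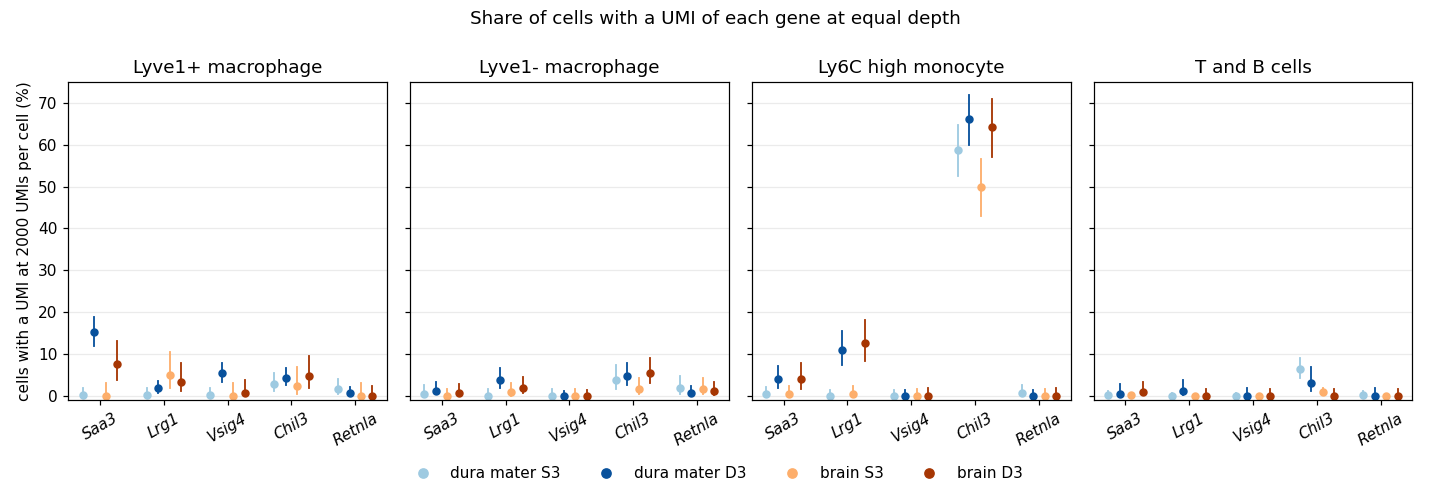
Share of cells with a UMI of each gene after each cell was thinned to 2000 UMIs (percent, with 95% Clopper-Pearson intervals) in Lyve1+ and Lyve1- macrophages, Ly6C high monocytes and T and B cells of the 4 libraries. For Saa3 and Vsig4 the D3 Lyve1+ macrophages of the dura mater (15.2% and 5.37%) stand above T and B cells (0.535% and 0), while for Chil3 the intervals of dura mater macrophages and of T and B cells overlap.

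Retnla was carried by very few cells, mostly at S3. Lyve1+ macrophages of the dura mater measured 178 CPM (622 UMIs) at S3 and 6.57 CPM (42 UMIs) at D3, a log2 ratio of -4.76 (counting interval -5.25 to -4.31), with a UMI in 3.46% and 2.1% of cells. Brain Lyve1+ macrophages held 0 UMIs in both libraries. Lyve1- macrophages measured 27.3 and 16.4 CPM in the dura mater (log2 ratio -0.74) and 98 and 26.4 CPM in the brain (-1.89). T and B cells had 0.67%, 0, 0.185% and 0 of cells with a UMI in dura mater S3 and D3 and brain S3 and D3.

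The same direction was found in cDC2, antigen-presenting cells led here by Cd209a, Ccl17 and Mgl2. They measured 184 CPM (602 UMIs) and 43.1 CPM (120 UMIs) in the dura mater, a log2 ratio of -2.09 (counting interval -2.39 to -1.81). In the brain they measured 255 CPM (709 UMIs) and 5.06 CPM (25 UMIs), a log2 ratio of -5.65 (counting interval -6.29 to -5.08). The intervals lay below 0 in 3 classes of each tissue and above 0 in none, where 12.4% of all dura mater and 15.7% of all brain pairs lay below. In 14 classes of each tissue both libraries were at or under 3 UMIs.

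These ratios rested on a handful of cells. Cells with 10 or more Retnla UMIs numbered 13 in dura mater S3, 6 in dura mater D3, 10 in brain S3 and 3 in brain D3, and held 97.5%, 87.8%, 96.9% and 87.5% of the Retnla UMIs of their library. The highest cells of dura mater S3 held 413, 345, 239, 185 and 145 UMIs, those of brain S3 409, 236 and 214, those of dura mater D3 108 and 59, and the highest of brain D3 held 52. The cell of 413 UMIs was in an unnamed cluster that carried both macrophage and T cell genes. In dura mater macrophages the ratio was -3.38 with all cells, -3.74 without the highest cell of each group and -2.97 with each cell weighted equally, and in brain macrophages -1.85, -1.48 and -1.22. Gated by marker score per cell, it was -3.87 in the dura mater and -4.98 in the brain.

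The macrophage ratios of the tissues can be set side by side. Of the 5 genes in dura mater macrophages, the contrast that chose them, 3 (Saa3, Lrg1 and Vsig4) were at least 2-fold higher at D3, where 0.792% of 10229 genes were, and 1 (Retnla) at least 2-fold lower, where 0.723% were. In brain macrophages 1 gene (Saa3) was at least 2-fold higher, where 0.565% of 8851 genes were, and 1 (Retnla) at least 2-fold lower, where 1.81% were. Brain Vsig4 had too few UMIs to enter that count, and the Lrg1 ratio of 0.93 fell short of 2-fold. In Ly6C high monocytes Saa3 and Lrg1 were at least 2-fold higher in both tissues, where 1.38% of 8060 genes in the dura mater and 1.94% of 7224 in the brain were. The median over all genes was -0.06 in dura mater and -0.05 in brain macrophages.

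Cells with and without Saa3 were compared for the other genes, class by class. In dura mater D3 Lyve1+ macrophages, Vsig4 was detected in 23 of 119 cells with Saa3 (19.3%, 12.7% to 27.6%) and in 22 of 309 without (7.12%, 4.52% to 10.6%). Cells with Saa3 were deeper, with a median of 17733 UMIs against 14204. In brain D3 Ly6C high monocytes, Lrg1 was detected in 15 of 28 cells with Saa3 (53.6%) and in 39 of 170 without (22.9%), at medians of 13876 and 13746 UMIs. In dura mater D3 Ly6C high monocytes, Lrg1 was detected in 21 of 44 cells with Saa3 (47.7%, 32.5% to 63.3%). Without Saa3 it was detected in 60 of 209 (28.7%, 22.7% to 35.4%), so the intervals overlapped. Among infiltrating macrophages of brain D3, Lrg1 was detected in 69 of 272 cells with Saa3 (25.4%, 20.3% to 31.0%). Without Saa3 it was detected in 189 of 1225 (15.4%, 13.4% to 17.6%), at medians of 23122 and 20338 UMIs. Chil3 was detected in 63.2% (57.2% to 69.0%) and 55.8% (53.0% to 58.6%) of these cells, with overlapping intervals. In brain D3 Lyve1+ macrophages, 0 of 21 cells with Saa3 had Lrg1 or Chil3 (0% to 16.1%). Of 125 cells without Saa3, 5.6% (2.28% to 11.2%) had Lrg1 and 13.6% (8.13% to 20.9%) had Chil3. These intervals overlapped, so no difference is read from them. In brain D3 microglia, Lrg1 was detected in 2 of 38 cells with Saa3 (5.26%, 0.644% to 17.7%). Without Saa3 it was detected in 7.02% of 570 (5.06% to 9.43%), again with overlapping intervals. The microglia with Saa3 were deeper, with a median of 30989 UMIs against 9593.

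Relatives of the 5 genes were also counted. The other serum amyloid A genes held 10 (Saa1), 3 (Saa2) and 0 (Saa4) UMIs over all kept cells against 13020 of Saa3, and the last 500 transcript bases of Saa3 shared 51.4% to 52.8% of positions with them. Chil4, which shared 92% with Chil3 over such bases, held 0 UMIs, and reads of the pair that match both could have been dropped or given to either, so that Chil3 values are uncertain to that extent. Retnlg, a neutrophil gene that shared 81.4% with Retnla, held 405425 UMIs over all kept cells. In macrophages Retnlg measured 328 and 449.6 CPM in dura mater S3 and D3 and 1123 and 128.5 CPM in the brain, so it did not move as Retnla did in the dura mater. In brain macrophages both were lower at D3, with log2 ratios of -3.13 for Retnlg and -1.85 for Retnla. Any reads that match both could have been dropped or given to either. Resistin itself (Retn) held 49 and 14 UMIs in dura mater macrophages of S3 and D3, a log2 ratio of -2.66.

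Gene lists for the settings in which these genes are known were described in macrophages by counts of genes with at least 50 UMIs. Of the acute-phase and IL-6/IL-1 response list, 15 of 18 genes were measured in dura mater macrophages and 0 reached 2-fold in either direction, with a median log2 ratio of 0.25; the genes with the largest ratios were Lcn2 (0.80), Mt2 (0.71), Hp (0.66) and S100a8 (0.54). In brain macrophages 5 of the 15 were at least 2-fold lower and 0 higher, among them S100a8 (-2.65), S100a9 (-2.41), Lcn2 (-2.22) and Hp (-1.40), beside the neutrophil markers given above. Within the separate classes, 3 of 15 genes were at least 2-fold higher in dura mater Lyve1- macrophages, 0 in dura mater Lyve1+ macrophages, 0 in brain Lyve1- macrophages and 1 (Socs3, 1.23, an inhibitor of cytokine signalling) in brain Lyve1+ macrophages, where 6 were lower.

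Of the IL-4/IL-13 alternative activation list, 13 of 18 genes were measured. In dura mater macrophages 0 were at least 2-fold higher and 1 lower, with a median of -0.01, and the largest ratios were those of Cish (-1.03), Tgm2 (0.92), Ccl24 (-0.67) and Egr2 (0.61). In brain macrophages 2 were at least 2-fold higher, Arg1 (4.37), the arginase that also led the infiltrating cluster, and Tgm2 (1.15), and 0 lower. Retnla, a gene of the same setting, was lower in both.

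Of the resident macrophage list, 7 of 10 genes were measured in dura mater macrophages and 1 was at least 2-fold higher, Fcna (1.60), the plasma ficolin of the lectin complement pathway, with 35.1 CPM at S3 and 106.6 at D3. Lyve1 (0.44), Timd4 (-0.43) and Folr2 (0.25) followed in size. In brain macrophages Fcna (1.41) was again the 1 gene past 2-fold. None of the 12 complement genes reached 2-fold in dura mater macrophages (median 0.14), in which Vsig4, a complement receptor, was higher. The receptors and partners of the 5 products, such as Tlr2, Tlr4, Fpr2, C3 and Tgfbr2, had 0 of 10 past 2-fold and a median of -0.17 there, and the list for the stress of tissue dissociation 0 of 12 and -0.12.

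The lists were also counted in Ly6C high monocytes and microglia. Of the acute-phase list, 3 of 14 measured genes were at least 2-fold higher in the dura mater (Lcn2 2.54, S100a8 2.24 and S100a9 1.29) and 4 of 14 in the brain, with none lower in either, where 1.38% and 1.94% of all genes were higher. Those named for the dura mater are neutrophil genes, and the summed neutrophil markers given with Lrg1 were also higher in these monocytes at D3. Their part in the counts was not tested. Of the complement list, 4 of 10 were at least 2-fold higher in the dura mater and 5 of 10 in the brain, with medians of 0.98 and 1.34. In microglia 8 of 15 acute-phase genes were at least 2-fold higher and 1 lower, where 5.55% and 5.01% of 9877 genes were. Saa3 and Lrg1 were higher in the same monocytes and microglia.

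The genes whose profile over 74 class and library groups was most like that of each gene are given as a description, since the groups share libraries and depth. Lrg1 was most like Lcn2 (Spearman's rho 0.80), a neutrophil granule protein, Alas1 (0.77) and Peli2 (0.74), and Chil3 most like C3 (0.85), Sem1 (0.82) and Cd177 (0.80), a surface protein of neutrophils. Saa3 was most like Mmp27 (0.60), Clec4n (0.57) and C4b (0.57). Vsig4 and Retnla had a UMI in 14 and 30 of the 74 groups, and their highest values (0.57 with Nxpe5 and 0.56 with Kcnj10) say little at such counts.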

How the data were processed

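The genes and lists were chosen with earlier results of these data known. The authors mapped reads to mm10 with Cell Ranger 3.1.0 and processed them in Seurat 3.1.0. The authors deposited ln-transformed values: the natural log of 1 plus a gene's share of its cell's UMIs times 10000. Each file lists only genes detected in 3 or more cells, and unlisted genes were set to 0. The smallest value of a cell was taken as 1 UMI, and all values then came out as whole UMIs within 1e-06.

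Kept cells had over 1000 and under 6000 genes and no more than 7% mitochondrial UMIs, and the highest doublet scores (a nearest-neighbour score against simulated pairs) were removed at 0.8% per 1000 barcodes. Clustering used 2500 variable genes, without 17 genes of the families of interest, after regression on depth and mitochondrial share (30 principal components, 20 neighbours, Leiden resolution 0.6). The 30 clusters were named from 28 marker lists: at least 2 markers among 10 leading genes, at least 3 detected in 10% of cells, and no list of another lineage above a log2 fold of 1. UMIs were summed per class and library. Intervals were exact (Poisson for levels and ratios, Clopper-Pearson for shares) at 95%, ratios were given for classes of at least 20 cells in both libraries, and the floor was 3 UMIs. The named genes were the 5 members, their families, at most 4 genes per list by size of ratio among those with 50 UMIs, and the 3 genes most like each member (log2 of CPM plus 1, at least 200 UMIs). On simulated Poisson counts, intervals held the true ratio for 95.9% of 10229 genes in dura mater and 96.0% of 8851 in brain macrophages. The intervals assume that same model, so this checks their computation only. The simulation did not place UMIs in few cells, as was the case for several of these genes. Computations used Python 3.11.15, numpy 2.4.6, scipy 1.17.1, pandas 2.3.3, scikit-learn 1.9.0, igraph 0.11.9, Biopython 1.88 and matplotlib 3.10.9. There were 12 alternative settings.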

Additional observations from a re-analysis of the deposited data

Results flagged for a closer look

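The Chil3 ratio had opposite signs in the dura mater and the brain in 3 classes, with counting intervals off 0 on both sides. In cDC1 the log2 ratio of D3 over S3 was -2.15 (-2.80 to -1.54) in the dura mater and 3.53 (0.85 to 8.91) in the brain, and 94 of the 106 UMIs of dura mater S3 lay in 1 cell, while the brain value rests on 1 UMI at S3 and 17 at D3, 13 of them in 1 cell. In cDC2 it was -1.46 (-2.10 to -0.85) in the dura mater and 4.93 (3.56 to 6.82) in the brain, and 140 of the 217 UMIs of brain D3 lay in 1 cell. Dura mater cDC2 (29.6 CPM at S3 and 10.8 at D3) and D3 cDC1 (23 CPM) were near or under the T and B cells of their libraries (27.8 and 20.7 CPM), so no expression is read from those values. The T and B cells were shallower than these classes, so their CPM is not a like measure of free RNA. In immature neutrophils, which carry the gene in most cells, it was -0.31 (-0.33 to -0.28) and 0.64 (0.59 to 0.70). The difference between the tissues was not tested, since each group had 1 library.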

How the results depend on the processing

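Scaling by the median ratio of genes moved none of the 10 macrophage ratios and 5 class counts beyond counting error. In dura mater macrophages the Saa3 ratio was 4.22 with 2500 cells drawn per library, 5.56 with cells thinned to 2000 UMIs, 7.64 without the highest cell of each group (an alternative chosen after seeing the data) and -1.04 under a marker gate per cell, which put 2681 of 2735 S3 UMIs among the gated macrophages through cells of the infiltrating cluster. The gate kept 96.8% of the clustered macrophages, and 9.55% of cells lay within 0.05 of a second class. Lrg1 was 1.91 with doublets kept and 4.56 thinned, and Vsig4 3.85 thinned and 4.19 without the highest cell. Chil3 was 0.91 without the filter on cells, 1.02 with 2500 cells, 0.26 with all variable genes and 1.07 under the gate. Retnla was -4.42 with doublets kept, -3.97 at resolution 0.3, -4.03 with all variable genes, -3.87 under the gate, -2.97 with cells weighted equally, -2.66 thinned and -3.74 without the highest cell. In brain macrophages Saa3 was 3.07 thinned, and Lrg1 1.37 with doublets kept and 0.52 under the gate. Brain Chil3 was -0.038 without the filter on cells, -0.042 when all variable genes were used, 0.19 with doublets kept, 0.20 at resolution 1.2, 2.61 with 2500 cells, 2.50 under the gate and 1.32 thinned. Brain Retnla was -1.34 with doublets kept, -1.45 with all variable genes, -4.98 under the gate, -1.22 with equal weights and -1.48 without the highest cell. Classes of both tissues above 0 numbered 18 for Saa3 (8 thinned, 9 with free RNA subtracted), 19 for Lrg1 (10 thinned), 3 for Vsig4 (5 without the filter, 1 with equal weights, 1 thinned, 1 with free RNA subtracted, 1 without the highest cell), 12 for Chil3 (6 thinned) and 0 for Retnla (2 with doublets kept, 2 under the gate). The cause of these moves was not tested, except that thinning leaves fewer UMIs. No paired analysis was possible because each group had 1 library, all with replicate number 1.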
